A study of Mus musculus with 12 samples.

Results

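The livers of mice carrying human HKDC1 in their hepatocytes were compared with the livers of mice given an empty vector, across all genes in the count table. Members were the liver libraries chosen by sample title, 6 of the 12 libraries of the series, with 3 null and 3 hHKDC1 OE livers. Both groups received 1 tail vein injection of adeno-associated virus AAV8 at 10 weeks of age and then a low-fat diet for 16 weeks. In hHKDC1 OE mice the virus carried full-length human HKDC1 behind the TBG promoter, which is active in hepatocytes, and in null mice it carried that promoter alone. The fat sequenced in the series came from male mice, and the study turned to males alone before its later liver assays, but the sex of the sequenced livers is not stated on its own, nor is the fasting state. The label text of 2 of the 3 hHKDC1 OE liver libraries calls them knockouts, whereas the titles and the treatment of the study put them with overexpression, and the titles were followed.

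HKDC1 is the most recently recognised of the mammalian hexokinases, the enzymes that trap glucose in cells as glucose-6-phosphate. Its product feeds glycolysis, glycogen, the pentose phosphate pathway and lipid synthesis. The liver also switches between fed and fasted programs through the fatty acid-sensing nuclear receptor PPAR alpha and glucocorticoids, and secretes acute phase proteins under the control of C/EBP, NF-kB and STAT3 factors.

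The largest fold changes were in genes for acute phase proteins, and the 250 bases before the start of 4 of them are shown because their C/EBP letters recur in the list. Sequences are from RefSeq (GRCm38.p6), 5′ to 3′ on the strand of the gene, with capitals marking TTGCNNAA. Saa1 lies at chr7:46742981-46743230 (minus strand), Saa2 at chr7:46751583-46751832 (plus), Orm2 at chr4:63362199-63362448 (plus) and Lcn2 at chr2:32387740-32387989 (minus).
Saa1: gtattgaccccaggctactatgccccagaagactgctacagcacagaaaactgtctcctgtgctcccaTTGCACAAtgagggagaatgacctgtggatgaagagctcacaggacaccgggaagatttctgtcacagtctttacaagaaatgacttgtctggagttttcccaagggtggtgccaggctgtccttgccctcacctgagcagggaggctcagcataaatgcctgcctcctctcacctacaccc
Saa2: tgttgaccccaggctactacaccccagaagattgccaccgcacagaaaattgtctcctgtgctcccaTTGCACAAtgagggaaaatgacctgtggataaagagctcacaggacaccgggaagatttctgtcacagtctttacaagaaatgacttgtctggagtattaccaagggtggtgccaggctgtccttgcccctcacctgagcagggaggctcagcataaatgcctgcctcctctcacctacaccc
Orm2: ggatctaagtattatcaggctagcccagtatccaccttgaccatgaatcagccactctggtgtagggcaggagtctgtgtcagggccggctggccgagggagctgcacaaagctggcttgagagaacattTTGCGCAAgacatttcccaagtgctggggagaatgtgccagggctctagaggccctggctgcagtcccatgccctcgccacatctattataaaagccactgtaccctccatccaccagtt
Lcn2: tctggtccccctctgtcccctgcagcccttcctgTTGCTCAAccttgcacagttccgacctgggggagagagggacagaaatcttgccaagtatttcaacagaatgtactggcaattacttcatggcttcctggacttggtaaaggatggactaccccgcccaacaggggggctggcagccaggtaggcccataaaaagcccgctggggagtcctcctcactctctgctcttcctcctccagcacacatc

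Of the 28 acute phase genes tested, 23 had a promoter in the RefSeq table, and 12 of these (52.2%) held TTGCNNAA on either strand, beside 10.8% of all 27025 genes with a promoter and 9.50% of the 9844 tested in liver. The STAT letters TTCNNNGAA were in 8 of the 23 (34.8%), beside 8.13% of all and 7.35% of those tested in liver. A loose form of the NF-kB site (GGG, 5 bases of any kind and CC) was in 14 of the 23 (60.9%), beside 48.7% of all and 65.9% of those tested in liver. These are matches of letters and no binding was measured.

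Library totals lay between 15496019 and 17935786 counts. Of 54532 genes, 13351 passed the filter on low counts and were tested with edgeR. No gene passed an adjusted p of 0.05 in either direction (0% called), and the smallest adjusted p was 0.0573, for Mup16 and Gapdh. At an unadjusted p under 0.05, 520 genes were higher (3.89%) and 407 lower (3.05%). In 842 genes (6.31%) all 3 hHKDC1 OE livers lay above all 3 null livers, and in 825 (6.18%) all lay below. By sign alone, 51.1% were higher and 48.9% lower. These shares over all genes are the background for the list counts below.

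The hHKDC1 OE livers were not alike. On the first principal component, which held 40.0% of the variance of 8074 well expressed genes, replicates 1 and 3 scored 24.3 and 21.6, replicate 2 scored -7.77, and the null livers scored from -15.3 to -9.52. Without hHKDC1 OE replicate 2, edgeR called 77 genes higher (0.567%) and 69 lower (0.508%) past the adjusted threshold, and 5.42% and 5.3% at an unadjusted p under 0.05. Leaving out any other single library gave no call past the adjusted threshold. Replicate 2 lay nearest to the null livers, so leaving it out was bound to widen the difference. Counts without it, here and below, only show how far results depend on that library. With the replicate number as a block, 13 genes were higher (0.0974%) and 4 lower (0.03%), and 4.58% and 3.89% at an unadjusted p under 0.05. No label states that livers of the same number are pairs. The pairing was inferred from these same data, so p-values with the block hold only if it is real. DESeq2 on all 6 libraries, adjusting over 14210 genes, called 44 higher (0.31%) and 47 lower (0.331%), with 2.19% and 1.79% of 24785 at an unadjusted p under 0.05. The 13 genes higher with the block were Orm2, Saa2, Mup16, Mup9, Saa1, Moxd1, Gapdh, Mup13, Lcn2, Arrdc3, Junb, Tnfaip2 and Mup18, and the 4 lower were Acot1, Ppp1r3c, Thbd and Tcim. Of the 13, 10 were also called by DESeq2 and 11 without replicate 2, and of the 4 lower, 3 and 4.

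**Figure D1:**
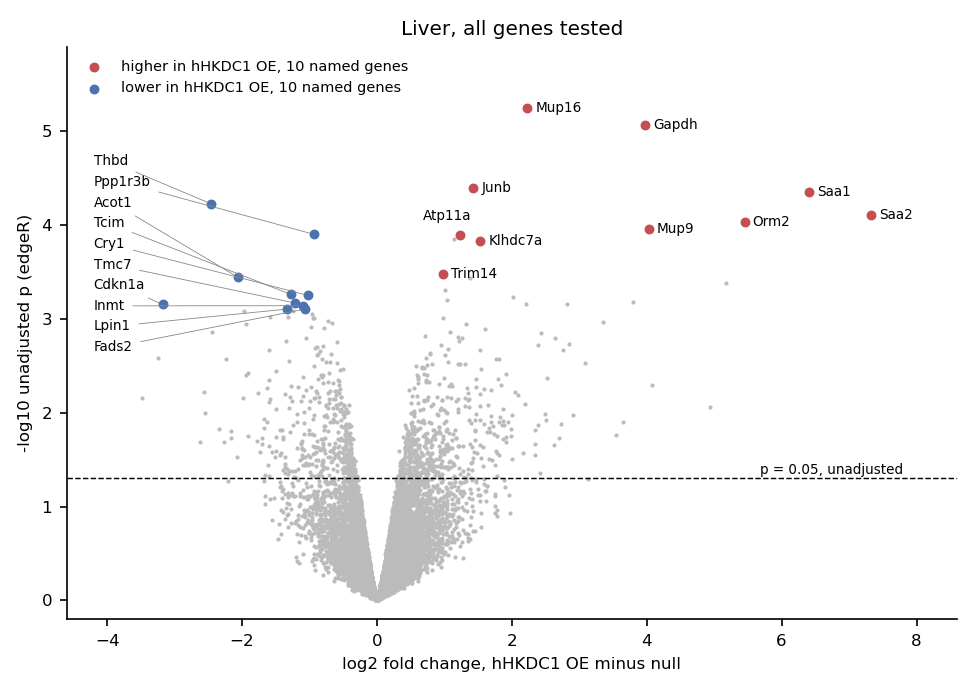
Log2 fold change (hHKDC1 OE minus null, x axis) against -log10 of the unadjusted edgeR p (y axis) for the 13351 genes tested, with the 10 higher and 10 lower protein-coding genes of smallest p named. Saa1, Saa2 and Orm2 stand far to the right, while the 10 named lower genes lie between -3.18 and -0.94.

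Values below are counts scaled to library size (CPM) with TMM factors, given for replicates 1, 2 and 3 in that order, and each fold change is a log2 difference, hHKDC1 OE minus null, with its SE. The vector's own transcript, human HKDC1, is not analysed here, because the table counts mouse genes. Mouse Hkdc1 had 8, 4 and 1 counts in null and 6, 8 and 2 in hHKDC1 OE livers and was too low to test, as was Hk2 with 8, 1 and 22 against 24, 9 and 9 counts. Hk1 was at 0.492 ± 0.0691 FPKM in null and 0.399 ± 0.108 in hHKDC1 OE livers and Hk3 at 0.564 ± 0.314 and 0.843 ± 0.241 (SD, n = 3), and the groups overlapped for both. In edgeR, Hk1 differed by -0.27 ± 0.33 (adjusted p = 0.914) and Hk3 by 0.59 ± 0.51 (adjusted p = 0.873). None of the 9 tested genes of hexokinases and glucose entry, among them the glucose transporter Slc2a2, reached an unadjusted p under 0.05.

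Acute phase genes mostly had higher estimates in hHKDC1 OE livers. Of 28 tested, 23 were higher, against 51.1% of all genes, 13 at an unadjusted p under 0.05 and none lower, and 10 did not overlap. Their median difference was 0.90, beside 0.006 over all genes, and ranged from 0.53 (null replicate 1 left out) to 1.22 (null replicate 3 left out). Saa1, a serum amyloid A apolipoprotein, was at 21.2, 31.9 and 79.2 CPM in null livers and at 6245, 603 and 4410 in hHKDC1 OE livers. Every hHKDC1 OE liver exceeded every null liver, although replicate 2 was the lowest of the 3 by a wide margin (6.41 ± 0.90, adjusted p = 0.149, and 0.0233 with the replicate block). Its neighbour Saa2 was at 6.73, 8.53 and 46.7 against 5592, 542 and 3784 CPM (7.32 ± 1.10, adjusted p = 0.163, and 0.0180 with the block). Saa1 and Saa2 are close paralogs, and their counts are uncertain where reads fit both.

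The same order of libraries recurred in other members. Orm2, an alpha-1-acid glycoprotein that binds drugs and lipids in plasma, was at 8.83, 3.78 and 11.1 against 714, 61.2 and 264 CPM (5.45 ± 0.84, adjusted p = 0.163, and 0.00957 with the block). Lcn2, a lipocalin that sequesters bacterial siderophores, was at 5.06, 4.36 and 21.2 against 700.3, 48.6 and 358 CPM (5.17 ± 0.97, adjusted p = 0.345, and 0.0362 with the block). Orm1 was at 547, 491 and 543 against 3262, 867 and 2267 CPM (2.02, adjusted p = 0.355). In all 3, hHKDC1 OE replicate 1 was highest and replicate 2 lowest of that group. In 12 of the 13 genes at an unadjusted p under 0.05, replicate 2 was the hHKDC1 OE liver nearest to the null mean. Hemopexin (Hpx), which scavenges heme, was at 3094, 3087 and 3473 against 14047, 3589 and 9089 CPM (1.47, adjusted p = 0.512). Haptoglobin (Hp), which scavenges hemoglobin, was at 2909, 3332 and 4185 against 13507, 3792 and 8577 CPM (1.31, adjusted p = 0.538), which overlapped through replicate 2.

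Not every acute phase gene took part. C-reactive protein (Crp), a minor reactant in mice, was at 503, 356 and 312 against 477, 389 and 385 CPM (0.10, adjusted p = 0.962). The iron hormone hepcidin (Hamp) was at 1078, 926 and 636 against 529.7, 1045 and 229.9 CPM (-0.55, adjusted p = 0.865). The 3 fibrinogen chains Fga, Fgb and Fgg had differences of 0.33, 0.45 and 0.34 and overlapped. Without hHKDC1 OE replicate 2, 18 of the 28 were higher and 2 lower at an unadjusted p under 0.05, and 12 of the 18 passed the adjusted threshold, while 12 of the 28 were higher at an unadjusted p under 0.05 without replicate 1 or 3.

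**Figure D2:**
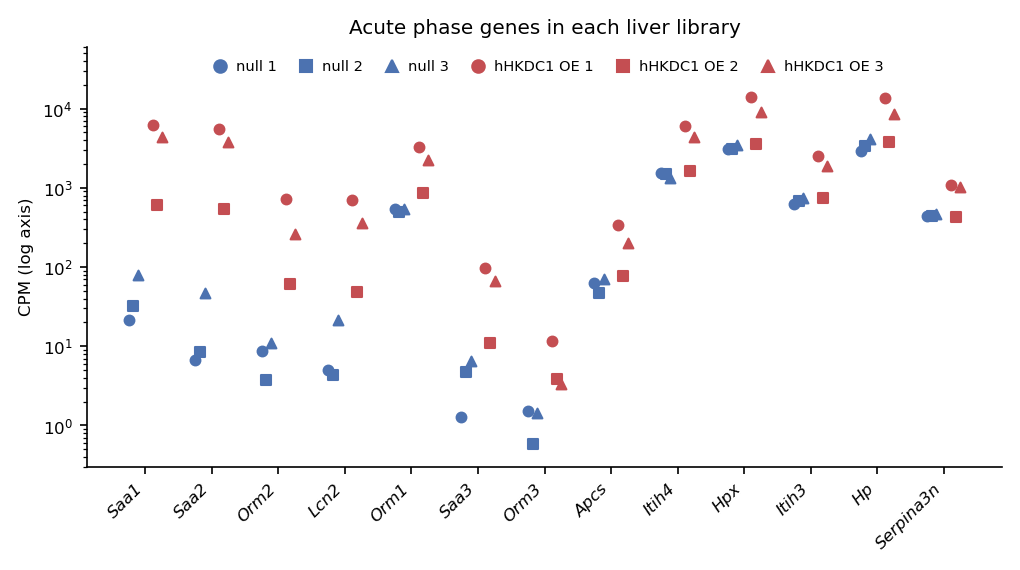
CPM (log axis) of the 13 acute phase genes with an unadjusted p under 0.05 in each liver library, null in blue and hHKDC1 OE in red, with the marker shape giving the replicate. For Saa1, the hHKDC1 OE livers span 603 to 6245 CPM and the null livers 21.2 to 79.2, and in 12 of the 13 genes replicate 2 lies nearest to the null livers.

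Some acute phase genes are also made by leukocytes, so marker lists of these cells were summed, on the same TMM scale. The 12 Kupffer cell and macrophage markers summed to 155, 196 and 307 CPM in null and to 589, 291 and 289 in hHKDC1 OE livers, and the groups overlapped through replicates 2 and 3. Scaled by library size alone, replicate 2, at 316 CPM, lay above the null livers, of which the highest was at 306. The 10 neutrophil and monocyte markers, of which 3 passed the filter on low counts, summed to 1.91, 4.17 and 8.37 against 9.84, 3.24 and 6.29 CPM. Their part in the acute phase result was not tested.

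Major urinary protein genes, a mouse cluster of pheromone carriers secreted by the liver, were the list with the largest median difference, 1.28. Of 18 tested, 16 were higher, 11 at an unadjusted p under 0.05 and none lower. In 10 of these 11, replicate 2 was the hHKDC1 OE liver nearest to the null mean. With replicate 2 left out, 14 of 20 were higher at that level, 9 of them at an adjusted p under 0.05, with replicate 1 left out 10 of 20, and with replicate 3 left out 8 of 18. Mup16 had the smallest p of all genes, at 135, 199.99 and 137 against 661, 591 and 964 CPM, without overlap and with hHKDC1 OE replicate 2 close to replicate 1 (2.23 ± 0.24, adjusted p = 0.0573, and 0.0233 with the block). Mup9 was at 6.49, 3.06 and 2.29 against 86.2, 16.8 and 90.7 CPM (4.03 ± 0.63, adjusted p = 0.163, and 0.0233 with the block). The most abundant member, Mup3, was at 13335, 11395 and 8570 against 12923, 8751 and 9973 CPM (-0.07, adjusted p = 0.979). These genes are near-identical copies, so their counts are uncertain one by one. Mup15 rested on 1 library, with 5237 CPM in hHKDC1 OE replicate 1 and between 80.6 and 429 CPM in the other 5.

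Gapdh, a glycolytic enzyme that is abundant in most tissues, was low in every null liver. It had 43, 115 and 100 counts in null and 2266, 1025 and 1182 in hHKDC1 OE livers, or 2.66, 7.49 and 6.20 against 139, 54.5 and 63.0 CPM. All 3 hHKDC1 OE livers stood apart from the null livers, replicate 2 included (3.97 ± 0.46, adjusted p = 0.0573, and 0.0233 with the block). Gapdh has many near-identical pseudogene copies in the mouse genome, so its count is uncertain. The 5 copies named after it in the table had at most 1 count in any liver library. Of the 21 genes of glycolysis and pyruvate tested, Gapdh alone was higher at an unadjusted p under 0.05 and 3 were lower. These were Pdk4 (given with its list below), Pfkfb3 at -0.79 (adjusted p = 0.621) and lactate dehydrogenase Ldha, at 901, 1062 and 1005 against 714, 642 and 739.8 CPM (-0.50, adjusted p = 0.554).

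Genes of the immediate early and stress response were mixed. Of 23 tested, 16 were higher, 6 at an unadjusted p under 0.05, and 2 of the lower ones passed it, with a median of 0.47. Junb, an AP-1 transcription factor subunit, was at 19.4, 19.2 and 24.7 against 51.3, 72.8 and 46.6 CPM, with replicate 2 highest (1.43 ± 0.20, adjusted p = 0.149, and 0.0461 with the block). Jun and the TGF-beta-induced factor Klf10 were also higher without overlap, at 1.17 (adjusted p = 0.520) and 1.03 (adjusted p = 0.355). Nr4a1 rested on hHKDC1 OE replicate 2, with 55.4 CPM against 0.59 to 4.06 CPM in the other 5 livers. Klf2, a flow-responsive factor of endothelium, was lower at 13.3, 20.1 and 14.4 against 5.60, 9.10 and 5.44 CPM (-1.24, adjusted p = 0.355). The median of the list was 0.11 without hHKDC1 OE replicate 2 and 0.85 without null replicate 3.

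Of 27 genes of the unfolded protein and integrated stress responses, 18 were higher, 6 at an unadjusted p under 0.05, and in all 6 replicate 2 was nearest to the null mean. Sdf2l1, an endoplasmic reticulum chaperone partner, was at 13.8, 18.2 and 21.6 against 58.8, 22.1 and 52.2 CPM (1.31, adjusted p = 0.458), and Pdia6, a disulfide isomerase, at 253, 243 and 247 against 456, 239.99 and 421 CPM (0.59, adjusted p = 0.645). The main endoplasmic reticulum chaperone Hspa5 differed by -0.001 (adjusted p = 0.9996). Without hHKDC1 OE replicate 2, 11 of the 27 were higher at an unadjusted p under 0.05, and 1 or 2 without replicate 1 or 3. Of 32 complement and coagulation genes, 25 were higher, 4 at an unadjusted p under 0.05 (C4b, C9, C8b and C8a), and all 4 overlapped because replicate 2 sat within or below the null livers. C8a was at 466, 609 and 682 against 1262, 492 and 1169.8 CPM (0.74, adjusted p = 0.712). At an unadjusted p under 0.05, 13 of 33 were higher with replicate 2 left out, none with replicate 1 or 3 left out, and 2 of 32 with the replicate block.

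Genes of PPAR alpha and the fasting response mostly had lower estimates in hHKDC1 OE livers. Of 23 tested, 22 were lower, against 48.9% of all genes, 12 at an unadjusted p under 0.05 and none higher, with a median of -0.67. That median was -0.41 without hHKDC1 OE replicate 1 and -1.06 without replicate 2. Acot1, a cytosolic acyl-CoA thioesterase, was at 64.5, 105 and 118 against 10.4, 31.8 and 26.8 CPM, without overlap and at a fold of 0.240 (-2.06 ± 0.38, adjusted p = 0.325, and 0.00957 with the block). Ehhadh, the peroxisomal bifunctional enzyme of fatty acid oxidation, was at 347, 402 and 376 against 149, 249 and 191 CPM (-0.93 ± 0.20, adjusted p = 0.355). Pdk4, which restrains pyruvate oxidation in fasting, was at 5.99, 4.63 and 6.45 against 1.29, 2.66 and 1.71 CPM (-1.58 ± 0.33, adjusted p = 0.355). In all 3 genes every hHKDC1 OE liver was below every null liver and replicate 2 was the nearest to them.

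The microsomal omega-hydroxylase Cyp4a10 ranged more widely, at 311, 569 and 768 against 15.2, 228 and 124 CPM (-2.17, adjusted p = 0.606), and Cyp4a14 at 223, 754 and 581 against 9.90, 295 and 32.1 CPM (-2.21, adjusted p = 0.719) overlapped. Ppara itself was at 143, 136 and 121 against 88.9, 107 and 107.5 CPM (-0.40, adjusted p = 0.618). The hormone Fgf21 differed by -0.30 (adjusted p = 0.896), and the groups overlapped. The count of 12 was 15 without hHKDC1 OE replicate 2, 7 of them at an adjusted p under 0.05, and 8 and 12 without replicates 1 and 3.

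Transcripts of mitochondrial fatty acid oxidation had small differences. All 20 genes tested had lower estimates, against 48.9% of all genes. Of these, 6 were at an unadjusted p under 0.05, against 3.05% of all genes, and 13 did not overlap, against 6.18%. Differences ran from -0.48 to -0.06 with a median of -0.29. Scaled by library size alone, 19 were lower, 3 of them at an unadjusted p under 0.05, and 1 was higher. Hadhb, the thiolase subunit of the trifunctional protein, was at 200.5, 222 and 224 against 144, 141 and 177 CPM (-0.48 ± 0.15, adjusted p = 0.552). The carnitine carrier Slc25a20, which is on both lists, was at 138, 153 and 162 against 97.2, 107 and 119 CPM (-0.48 ± 0.14, adjusted p = 0.536). Cpt1a, the entry step of long-chain fatty acids, was at 552, 535 and 606 against 361, 466 and 547 CPM, and overlapped (-0.30, adjusted p = 0.816). Replicate 2 was the hHKDC1 OE liver nearest to the null mean in 7 of the 20 and replicate 3 in 11. Without replicate 2, 7 of the 20 passed an unadjusted p under 0.05, as without replicate 3, and 3 without replicate 1.

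**Figure D3:**
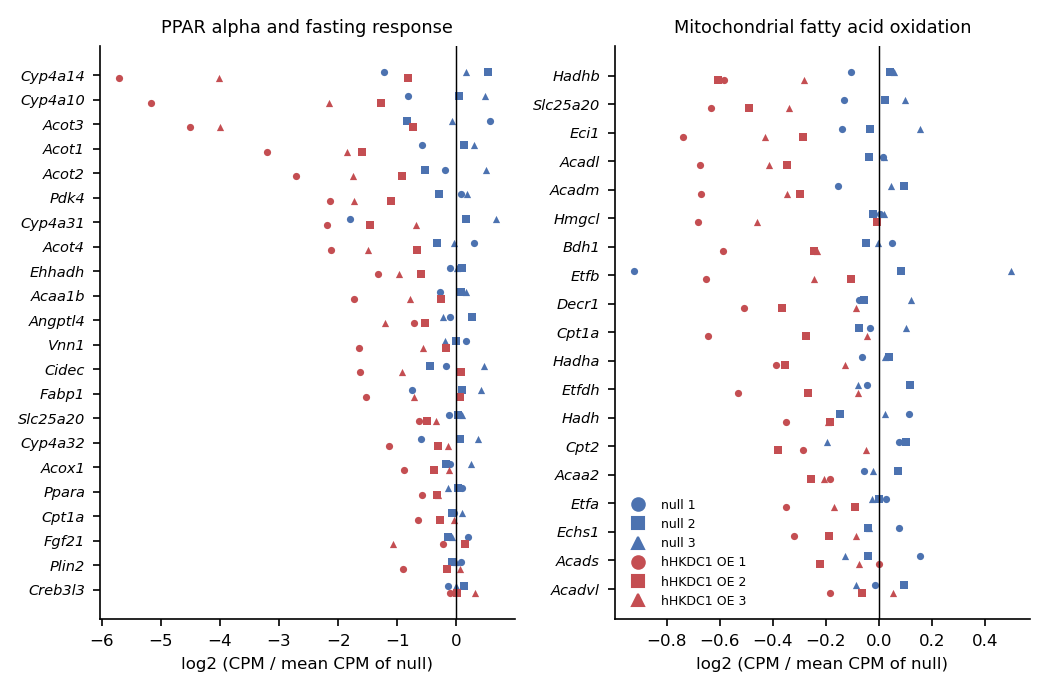
Log2 of CPM over the null mean (x axis) for tested genes of the PPAR alpha and fasting list and of mitochondrial fatty acid oxidation, null in blue and hHKDC1 OE in red, with the marker shape giving the replicate. In the first list replicate 1 is the hHKDC1 OE liver nearest to the null mean in no gene, and in the second the genes shown have lower estimates, from -0.48 to -0.06.

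Other mitochondrial lists had small differences. All 29 nuclear genes of oxidative phosphorylation tested had lower estimates, none at an unadjusted p under 0.05, between -0.26 and -0.02, and 26 and 25 of the 29 were lower without hHKDC1 OE replicates 1 and 3. Of 16 tricarboxylic acid cycle genes, 15 were lower with 1 at an unadjusted p under 0.05, and none passed it with the replicate block, with scaling by library size alone, or with hHKDC1 OE replicate 1, 2 or 3 left out. The 12 tested genes of the mitochondrial genome were all lower, 2 of them at an unadjusted p under 0.05 (mt-Nd4l and mt-Co3), with a median of -0.21. Of the 12, 9 were lower without hHKDC1 OE replicate 3, with a median of -0.11. The count was 11 without replicate 1 and 10 with scaling by library size alone. At an unadjusted p under 0.05, 4 were lower with replicate 2 left out, 2 with replicate 1 left out and 1 with replicate 3 left out. Scaling by library size alone moved the median of all genes to 0.07 and that of oxidative phosphorylation from -0.15 to -0.09.

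Of the 16 PPAR alpha list genes with a promoter in the table, 1 held AGGNCA in tandem with 1 base between on either strand, the direct repeat to which PPAR alpha binds, beside 0.400% of all promoters and 0.356% of those of genes tested in liver. It was the fatty acid binding protein gene Fabp1, at 1665, 3013 and 3752 against 979, 2928 and 1708 CPM, which overlapped (-0.59, adjusted p = 0.832). Its 250 bases at chr6:71199629-71199878 (plus strand) are shown with the repeat, read on the other strand, in capitals.
Fabp1: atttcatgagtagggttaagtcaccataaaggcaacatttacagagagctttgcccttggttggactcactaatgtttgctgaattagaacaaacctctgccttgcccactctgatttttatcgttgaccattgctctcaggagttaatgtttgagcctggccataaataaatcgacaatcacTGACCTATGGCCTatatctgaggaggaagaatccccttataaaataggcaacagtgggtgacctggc

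Lipid synthesis and storage genes mostly had lower estimates, and none passed an adjusted p of 0.05 in edgeR on all 6 livers. Of 19 genes of de novo lipogenesis, 15 were lower, 4 at an unadjusted p under 0.05, with a median of -0.52 that became -0.08 without null replicate 1. The lower count at that level was 8 without hHKDC1 OE replicate 2, 2 of them at an adjusted p under 0.05, and 4 without replicate 1 or 3. In all 6 livers, the 4 were Fads2, Fads1, Elovl2 and Thrsp, of which the first 3 make polyunsaturated fatty acids. Fads2, the delta-6 desaturase, was at 1147, 665 and 900.0 against 369, 456 and 469 CPM (-1.07 ± 0.22, adjusted p = 0.355). Fads1, the delta-5 desaturase, was at 1169.6, 655 and 970.5 against 519, 560.3 and 499.9 CPM (-0.82 ± 0.22, adjusted p = 0.494). Scd1, the delta-9 desaturase, was at 25909, 13480.4 and 12318 against 3950, 16375 and 4464 CPM and overlapped through replicate 2 (-1.06, adjusted p = 0.764). Fatty acid synthase (Fasn) was at 1595, 583 and 352 against 303, 779.8 and 441 CPM (-0.73, adjusted p = 0.838), with null replicate 1 far above the others.

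Of 26 genes of triglyceride assembly and lipid droplets, 20 were lower, 6 at an unadjusted p under 0.05 and none higher, with a median of -0.48. The median was -0.27 without hHKDC1 OE replicate 1 and -0.58 without replicate 2. Lpin1, a phosphatidate phosphatase and transcriptional coactivator, was at 697, 966 and 812 against 300.02, 469 and 218 CPM (-1.33 ± 0.27, adjusted p = 0.355). The droplet coat protein Plin5 was at 82.5, 122 and 113 against 48.9, 67.5 and 46.9 CPM (-0.96 ± 0.20, adjusted p = 0.355). Neither overlapped. The acyltransferases Dgat1 and Dgat2, which close triglyceride synthesis, differed by 0.04 (adjusted p = 0.982) and -0.02 (adjusted p = 0.990). Without hHKDC1 OE replicate 2, 13 of the 26 were lower at an unadjusted p under 0.05, 3 and 4 without replicates 1 and 3, and 10 with the replicate block.

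Most glucocorticoid-responsive genes had lower estimates. Of 19 tested, 16 were lower, against 48.9% of all genes, 7 of them at an unadjusted p under 0.05, against 3.05%. Lcn2 alone was higher at it, and the median was -0.42. Fkbp5, a cochaperone of the glucocorticoid receptor, was at 117, 165 and 168 against 47.2, 103 and 35.7 CPM (-1.27 ± 0.35, adjusted p = 0.512). Tsc22d3 was at 235.5, 251 and 154 against 107, 137 and 54.9 CPM (-1.10 ± 0.32, adjusted p = 0.520). The tyrosine aminotransferase Tat was at 3897, 3298 and 2352 against 1646, 2229.7 and 532 CPM (-1.11, adjusted p = 0.65). In these 3 genes the groups did not overlap, and replicate 2 was the highest of the hHKDC1 OE livers. Without it, 11 of the 19 were lower and 2 higher at an unadjusted p under 0.05, 4 of the lower ones at an adjusted p under 0.05, and the median was -0.77, whereas without replicate 3 the median was -0.24. The receptor gene Nr3c1 was at 65.8, 57.9 and 61.2 against 73.0, 47.8 and 94.2 CPM (0.22, adjusted p = 0.895).

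Glycogen genes were even in direction, 6 higher and 8 lower of 14. Without overlap, 2 were higher and 3 lower, beside 6.31% and 6.18% of all genes. Among the 3 were 2 regulatory subunits that bring protein phosphatase 1 to glycogen, the only members at an unadjusted p under 0.05. Ppp1r3b was at 422, 425 and 368 against 230.2, 211 and 193 CPM, with replicate 2 between the others (-0.94 ± 0.15, adjusted p = 0.163). Ppp1r3c was at 69.2, 94.4 and 51.5 against 16.4, 31.3 and 8.11 CPM (-1.94 ± 0.42, adjusted p = 0.362, and 0.0169 with the block). Of 23 gluconeogenic and insulin-regulated genes, 3 were lower and none higher at an unadjusted p under 0.05. The lower count was 7 without hHKDC1 OE replicate 2, 2 of them at an adjusted p under 0.05, and 1 without replicate 3, and with the replicate block 7 were lower and 1 higher.

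Of 30 tested cell cycle genes, 3 were lower and none higher at an unadjusted p under 0.05. These were the G1 cyclins Ccnd1 and Ccnd2 and the cyclin-dependent kinase inhibitor p21 (Cdkn1a). Cdkn1a was at 6.42, 8.86 and 33.1 against 0.92, 2.66 and 1.71 CPM (-3.18 ± 0.64, adjusted p = 0.355), and the difference was -2.10 without null replicate 3. Ccnd1 was at 18.3, 8.21 and 7.87 against 3.26, 6.17 and 4.96 CPM (-1.25, adjusted p = 0.52), with -1.47 to -0.74 on leaving out 1 library. Pcna, a clamp of replicating DNA, was at 37.0, 29.8 and 23.3 against 26.6, 23.9 and 20.7 CPM (-0.34 ± 0.19, adjusted p = 0.79). Its difference ran from -0.49 to -0.16 on leaving out 1 library.

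The YAP and Hippo list was split evenly, 17 higher and 17 lower of 34, with 3 higher and none lower at an unadjusted p under 0.05 (Gadd45a, F3 and Dlc1). At that level 5 were higher and 5 lower without hHKDC1 OE replicate 2, and 4 and 1 with the replicate block. Its median of -0.01 changed sign with scaling by library size alone. Yap1 was at 61.4, 69.8 and 53.4 against 51.3, 57.0 and 62.4 CPM (-0.11 ± 0.15, adjusted p = 0.928). Of the YAP target genes that encode matricellular proteins, Cyr61 was at 5.81, 5.67 and 5.89 against 7.32, 12.7 and 5.97 CPM, without overlap but with replicate 3 next to the null livers (0.58 ± 0.29, adjusted p = 0.764). Its difference was 0.20 without hHKDC1 OE replicate 2. Ctgf was at 10.5, 10.9 and 9.55 against 4.12, 10.7 and 6.72 CPM (-0.51 ± 0.31, adjusted p = 0.811), and the difference was -0.24 without hHKDC1 OE replicate 1 and -0.92 without replicate 2. Ctnnb1 (beta-catenin) differed by 0.003 ± 0.20 and pyruvate kinase Pkm by -0.22 ± 0.24. Myc was at 1.73, 1.76 and 69.4 against 2.64, 2.61 and 27.3 CPM, so that replicate 3 was the highest in both groups.

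Of the 20 genes picked by p alone, Atp11a, Klhdc7a and Trim14 were higher and Thbd, Tcim, Cry1, Tmc7 and Inmt lower, all without overlap. Thbd, the endothelial anticoagulant receptor thrombomodulin, was at 9.26, 9.84 and 5.08 against 1.35, 1.97 and 1.07 CPM (-2.45 ± 0.36, adjusted p = 0.158, and 0.0233 with the block). Cry1, a repressor of the circadian clock, was at 18.3, 15.4 and 17.4 against 10.5, 6.86 and 7.89 CPM (-1.02 ± 0.20, adjusted p = 0.355), while of the 21 clock genes tested 2 were higher and 1 lower at an unadjusted p under 0.05, 4 and 3 with the replicate block, and 0 and 3 without hHKDC1 OE replicate 2. Atp11a, a phospholipid flippase, was at 9.26, 8.40 and 10.4 against 25.7, 16.9 and 23.4 CPM (1.23 ± 0.20, adjusted p = 0.163).

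**Figure D4:**
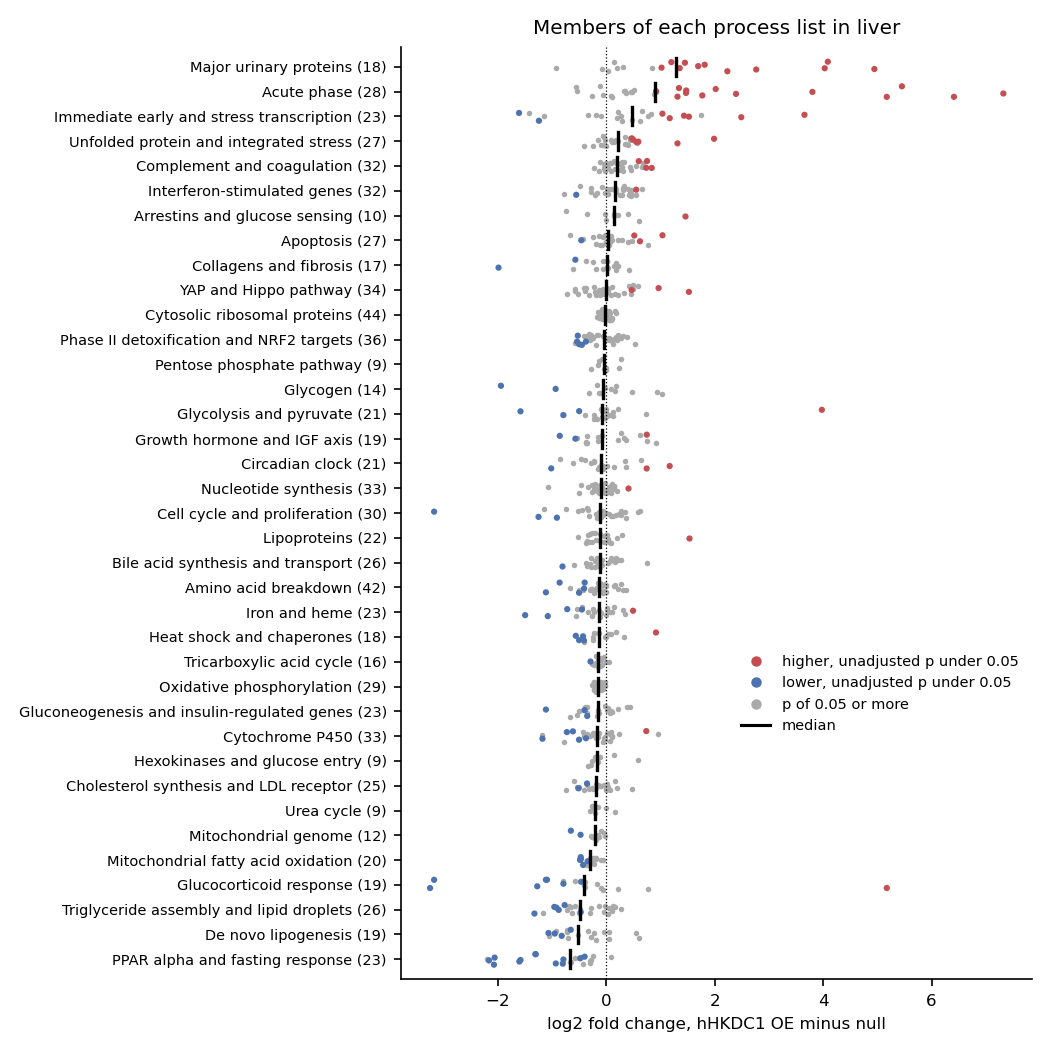
Log2 fold change (hHKDC1 OE minus null, x axis) of every tested gene of 37 process lists, ordered by their medians (black bars), with genes at an unadjusted p under 0.05 in red (higher) or blue (lower) and the number tested in brackets. Medians run from -0.67 for PPAR alpha and fasting to 1.28 for the major urinary proteins.

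The remaining lists are given by their counts at an unadjusted p under 0.05, which 3.89% of all genes passed as higher and 3.05% as lower. The single calls in the nucleotide synthesis, interferon-stimulated, lipoprotein and bile acid lists are near these shares. Cytochrome P450 genes had 1 higher and 5 lower of 33, phase II detoxification 0 and 5 of 36, heat shock proteins 1 and 4 of 18, iron and heme 1 and 4 of 23, and amino acid breakdown 0 and 5 of 42. Cytosolic ribosomal proteins had none of 44, the pentose phosphate pathway none of 9, the urea cycle none of 9 and nucleotide synthesis 1 higher and 0 lower of 33. Apoptosis had 3 higher and 1 lower of 27, interferon-stimulated genes 1 and 1 of 32, the growth hormone and IGF axis 1 and 2 of 19, lipoproteins 1 and 0 of 22, bile acid genes 0 and 1 of 26, collagens and fibrosis 0 and 2 of 17, cholesterol synthesis 0 and 2 of 25, and arrestins and glucose sensing 1 (Arrdc3) and 0 of 10. Leaving out hHKDC1 OE replicate 2, the lower count was 10 for cytochrome P450, 11 for phase II detoxification, 9 for amino acid breakdown, 7 for iron and heme, 4 for the growth hormone axis, 4 for lipoproteins, 3 for bile acid genes, 2 for arrestins, 2 for nucleotide synthesis and 1 for the urea cycle, and the higher count was 3 for phase II detoxification, 5 for apoptosis, 4 for interferon-stimulated genes, 3 for the growth hormone axis, 3 for lipoproteins, 1 for bile acid genes and 1 for the pentose phosphate pathway. Without replicate 3, 2 cytochrome P450 genes, 2 of phase II detoxification, 3 of amino acid breakdown and 1 of the urea cycle were lower. Without replicate 1, no arrestin gene and 1 apoptosis gene were higher, and 2 genes each were lower in phase II detoxification, amino acid breakdown, iron and heme, and heat shock. With the replicate block, 4 growth hormone genes were higher, 3 bile acid genes lower, and 2 arrestin genes higher and 1 lower. No bile acid gene was lower at that level without replicate 1 or 3 or with scaling by library size alone, and no nucleotide synthesis gene was higher without replicate 1 or 3 or in DESeq2. Over all 37 process lists and both directions, 27 counts at an unadjusted p under 0.05 were between 1 and 3, and 8 of them were 0 in at least 1 of 6 other fits (DESeq2, library size alone, the replicate block, and each hHKDC1 OE library left out). The 8 were the higher counts of nucleotide synthesis, the clock, growth hormone, iron and heme, and arrestins, and the lower counts of the tricarboxylic acid cycle, bile acid and interferon-stimulated genes. Of 32 counts of 0, 19 were above 0 in at least 1 of these fits. The P450 reductase Por was at 670, 853 and 764 against 482, 574 and 435 CPM (-0.62, adjusted p = 0.52). Alas1, the rate-limiting enzyme of heme synthesis, was at 554, 558 and 1183 against 219.7, 409.6 and 456 CPM (-1.08, adjusted p = 0.587). Its difference ran from -1.28 to -0.62 on leaving out 1 library.

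Defining markers of hepatocytes were abundant in all 6 livers. The 11 hepatocyte markers summed to 117756, 112108 and 110865 CPM in null and to 93198, 85704 and 72199 in hHKDC1 OE livers, without overlap on this scale or by library size alone, and albumin (Alb) made 59.6% of the sum. Alb was at 75133, 69624 and 68947 against 50370, 50318 and 38059 CPM (-0.62 ± 0.22, adjusted p = 0.613), and 3 of the 11 markers were lower and none higher at an unadjusted p under 0.05. Of the 11, 2 (Alb and Tat) were lower without overlap, beside 6.18% of all genes. The others overlapped, with Fgb at 0.45 and Apob at 0.007. Without Alb the sums of the groups overlapped, through hHKDC1 OE replicate 1. The summed adipocyte markers, of which Car3 made 98.0%, were at 0.843 of the null level, and 9 of the 12 pancreatic acinar markers had no count in any liver.

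Markers of the sinusoid also differed. All 10 liver endothelial markers were lower, 7 at an unadjusted p under 0.05, with sums of 220.01, 258 and 183 CPM in null and 106, 191 and 109 in hHKDC1 OE livers. The sinusoidal receptor Gpr182 was at 25.4, 28.7 and 24.9 against 10.1, 18.5 and 13.2 CPM (-0.91, adjusted p = 0.436). Of the 10, 9 were lower at an unadjusted p under 0.05 without hHKDC1 OE replicate 2 and 4 without replicate 1 or 3. All 12 Kupffer cell and macrophage markers were higher, 10 at an unadjusted p under 0.05, but none passed it without hHKDC1 OE replicate 1. The Kupffer cell lectin Clec4f was at 38.7, 45.01 and 70.0 against 114, 70.1 and 71.1 CPM (0.73, adjusted p = 0.608). The macrophage receptor Marco was at 0.37, 1.63 and 7.69 against 41.3, 7.77 and 3.04 CPM (2.41, adjusted p = 0.694). In whole liver, fewer cells of a type and less RNA per cell cannot be told apart. Thbd and Klf2 are themselves expressed by endothelium, and the part of the endothelial markers in their difference was not tested.

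**Figure D5:**
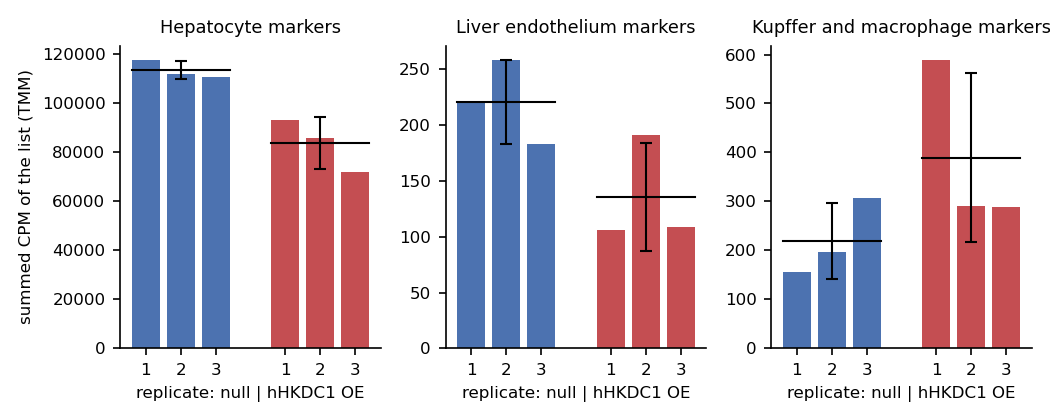
Summed CPM with TMM factors (y axis, from 0) of the hepatocyte, liver endothelial, and Kupffer cell and macrophage marker lists in each liver library, null in blue and hHKDC1 OE in red, with the mean (line) and SD of 3 (error bar). Hepatocyte sums, of which Alb makes 59.6%, do not overlap between the groups. Endothelial sums overlap through hHKDC1 OE replicate 2, at 191 CPM, and macrophage sums through replicates 2 and 3, at 291 and 289 CPM.

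The subcutaneous fat of the series has the same 2 treatments, so the liver difference was set against that in fat. The interaction of treatment and tissue called none of 17070 genes at an adjusted p under 0.05 in edgeR and 2163 (12.7%) at an unadjusted p under 0.05. Liver differences below are from the fit of the 6 liver libraries, and those in fat and the interaction from 1 fit of all 12 libraries. Levels in fat are not given here. Saa1 differed by 6.41 in liver and 5.32 in fat, and Saa2 by 7.32 and 6.54. Orm2 differed by 5.45 and 1.86 (interaction adjusted p = 0.215), and Mup16 by 2.23 and 0.28 (0.704), while another major urinary protein gene, Mup9, differed by 4.03 and 3.38 (0.946) and Gapdh by 3.97 and 2.78 (0.777). Lpin1 differed by -1.33 and -1.21.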

How the data were processed

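The authors extracted RNA from whole liver, made unstranded libraries and mapped paired reads with STAR 2.5 and HTSeq 0.6.1, per the submitters' notes. Their methods name a human reference, whereas 99.9% of the 54532 identifiers match mouse GENCODE M21 (GRCm38). The deposited counts are raw read counts per gene, and the deposited FPKM values are the authors' length- and depth-scaled fragment values. Tables of the authors' own comparisons (fold changes and p-values) were not used.

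Counts of 6 liver libraries were fitted with edgeR 4.0.16 (R 4.3.3): filterByExpr, TMM, quasi-likelihood test of hHKDC1 OE against null, Benjamini-Hochberg adjustment over 13351 genes. The SE is the fold change over the root of F. DESeq2 1.42.0 and limma 3.58.1 on log2(FPKM + 1) or log2(FPKM + 0.1), kept where the mean FPKM reached 0.1, served as alternatives. CPM values and marker sums carry the TMM factors unless library size alone is named. The TMM scaling of the sums was added after the data were seen. Fits were tested on simulated counts. With 3 against 3, an exact permutation test cannot go below p = 0.1. The study gives separate mice for the sequenced fat. For liver neither labels nor methods say so, and p-values measure the spread between these samples. Replicate pairs differed well beyond counting noise (chi-square per gene from 19.8 to 121).

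Titles give both groups the numbers 1 to 3. Deviations of same-numbered livers from their group means correlated at 0.22, 0.19 and 0.10 over 13351 genes. Those of livers with unlike numbers lay between -0.21 and 0.07. Each same-numbered value was over 0.1, so the numbers were taken as pairs in the fit with the block. These correlations are not independent, because deviations within each group cancel, and they do not establish a pairing. No label states a shared litter, batch or day.

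Members and lists were chosen with earlier results of these data known. Named genes were the hexokinases, genes followed by the study (Pcna, Yap1, Ctgf, Cyr61, Ctnnb1, Myc, Pkm), the 10 higher and 10 lower protein-coding genes with a mean CPM of at least 1 and the smallest p, and the 4 members of smallest p of each list. Other list members and markers given, such as Crp, Hamp and Scd1, were chosen after their values were seen. Some single genes of these lists are counted but not reported here.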

Additional observations from a re-analysis of the deposited data

Results flagged for a closer look

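Of 158 named genes, 6 stood apart between the groups in opposite directions in liver and subcutaneous fat. Many of the 158 were picked by a small p in liver, where 6.31% of all genes stood apart higher and 6.18% lower. The same count was not made over all genes, so whether 6 is many cannot be told. Arrdc3 had a log2 ratio of group means of 1.46 in liver and -1.79 in fat, and was the only 1 of the 6 that was higher in hHKDC1 OE liver. The other 5 were lower in liver and higher in fat: Klf2 (-1.24 and 0.86), Id1 (-1.50 and 0.56), Ccnd1 (-1.25 and 0.47), Mcm3 (-0.51 and 1.67) and Srebf2 (-0.35 and 0.62). In the edgeR interaction of treatment and tissue the adjusted p of the 6 lay between 0.139 and 0.155, so none of these differences between tissues passed the test. Groups of 3 are too small for a test of single outlying libraries.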

How the results depend on the processing

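The counts at an adjusted p under 0.05 (0 higher and 0 lower) depended on the fit. DESeq2 gave 44 and 47, no filter on low counts 180 and 147, the replicate block 13 and 4, limma on log2(FPKM + 1) 2 and 1 and on log2(FPKM + 0.1) 3 and 2, library size alone 2 and 0, a robust fit 1 and 0, and an adjusted p under 0.1 2 and 0. Leaving out 1 library gave 0 to 77 higher and 0 to 69 lower, and every fit but that without hHKDC1 OE replicate 2 gave 0 and 0. The counts at an unadjusted p under 0.05 (520 and 407) became 987 and 652 with no filter, and 232 lower with library size alone, and ranged from 377 to 737 higher and 270 to 720 lower on leaving out 1 library. The replicate block added calls and its 17 genes are named above. It changed no other call at this threshold.

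Directions reversed for 5 named genes that passed no test. Ctnnb1 fell below 0 in 9 alternatives: -0.00143 with DESeq2, -0.00104 with RLE, -0.00366 with the replicate block, -0.018 with 12 libraries in 1 fit, -0.0337 and -0.0348 with limma at a pseudocount of 1 and 0.1, and from -0.13 to 0.16 on leaving out 1 library. Leaving out 1 library gave -3.21 to 2.64 for Myc (2.64 without null replicate 3), -0.42 to 0.015 for Pkm (0.015 without null replicate 2), -0.052 to 0.41 for Rpia (-0.052 without hHKDC1 OE replicate 2) and -0.085 to 0.36 for Rpsa (-0.085 without hHKDC1 OE replicate 1). The causes were not tested. Among list medians, 10 of 37 took the other sign in at least 1 alternative, cholesterol synthesis (0.21 without null replicate 1) and growth hormone genes (0.24 without null replicate 3) by the most. Totals of at most 17935786 counts leave genes of a few counts, such as mouse Hkdc1, below what could be compared.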
